A study of Mus musculus with 6 samples.

Results

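The germline and meiosis genes described here are 36 genes of the 51912 in the deposited count table, listed by symbol for their known roles in germ cells, and all 36 were found in the table by their Ensembl identifier. All are protein-coding in GENCODE M21, whose GRCm38 coordinates are given beside each gene described in full. Their messenger RNA was measured in R1 mouse embryonic stem cells, an established line, grown naive in 2iLIF medium (a MEK inhibitor, a GSK3 inhibitor and the cytokine LIF). The cells were then moved to the defined medium N2B27 plus 100 ng/ml of the growth factor FGF2, for 24 h in 3 libraries and for 48 h in 3 libraries. Both groups share the line, the starting medium, the new medium and the FGF2 dose, and the labels give no difference other than time. Libraries of cells before FGF2, or in N2B27 without it, were not analysed here, so FGF2, the loss of the inhibitors and time in culture cannot be told apart. The 6 libraries held between 19574969 and 23133148 counts. Nothing in the labels says whether replicates were separate cultures, and p-values then measure the spread between these libraries, which may be technical.

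Germ cells use a set of genes that most somatic cells keep silent. DAZL, DDX4 and related proteins handle germ cell RNA. PIWI and Tudor-domain proteins make and use piRNAs, small RNAs that silence transposable elements. In meiosis, cohesin variants and axis proteins organise the chromosomes, the synaptonemal complex joins homologues, and SPO11 and DMC1 start and repair the DNA breaks of recombination. Many of these genes have CpG-rich promoters that are silenced by DNA methylation during the exit from naive pluripotency and in somatic lineages. Repressor complexes with E2F6, which recognises E2F-type sites, and with MGA and MAX, which bind the E-box, hold some of them down in embryonic stem cells.

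Promoter windows are shown first, since methylation and both repressors act there. RefSeq (GRCm38.p6) gives a window of 300 bases, 250 before and 50 after the transcript start, for 31 of the 36 genes. Dazl, Mael, Meioc, Hormad1, Dmc1, Tex19.1, Fkbp6 and Tdrd9 are printed. They hold a CpG-rich example without either motif, the main combinations of motifs, and genes that moved in each direction. They were picked with their motifs and changes known. Each line gives the 250 bases before the RefSeq transcript start, 5′ to 3′ on the gene's strand, with 2 hexamers in capitals: the E-box CACGTG, and the E2F hexamer TCCCGC or its reverse complement GCGGGA.
Mael (chr1:166238745-166238994, minus strand): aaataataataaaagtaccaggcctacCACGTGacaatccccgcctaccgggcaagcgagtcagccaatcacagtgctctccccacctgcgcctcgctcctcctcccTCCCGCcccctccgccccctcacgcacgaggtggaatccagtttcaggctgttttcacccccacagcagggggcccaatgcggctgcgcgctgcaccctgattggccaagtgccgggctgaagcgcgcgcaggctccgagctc
Hormad1 (chr3:95559427-95559676, plus strand): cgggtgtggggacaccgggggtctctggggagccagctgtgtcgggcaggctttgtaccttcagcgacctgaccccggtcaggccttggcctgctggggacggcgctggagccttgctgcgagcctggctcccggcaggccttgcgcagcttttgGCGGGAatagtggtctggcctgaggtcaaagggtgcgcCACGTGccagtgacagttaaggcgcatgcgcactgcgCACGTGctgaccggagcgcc
Meioc (chr11:102665335-102665584, plus strand): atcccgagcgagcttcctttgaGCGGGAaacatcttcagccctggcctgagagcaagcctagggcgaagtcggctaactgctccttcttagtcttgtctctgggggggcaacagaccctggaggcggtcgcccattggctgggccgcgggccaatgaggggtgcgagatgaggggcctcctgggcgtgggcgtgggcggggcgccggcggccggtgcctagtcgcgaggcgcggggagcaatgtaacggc
Dmc1 (chr15:79605110-79605359, minus strand): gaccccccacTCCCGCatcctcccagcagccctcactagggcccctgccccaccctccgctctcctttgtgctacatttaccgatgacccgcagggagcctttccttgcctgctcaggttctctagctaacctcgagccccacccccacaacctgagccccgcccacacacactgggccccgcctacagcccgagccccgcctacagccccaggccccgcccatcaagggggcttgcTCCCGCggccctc
Tex19.1 (chr11:121145893-121146142, plus strand): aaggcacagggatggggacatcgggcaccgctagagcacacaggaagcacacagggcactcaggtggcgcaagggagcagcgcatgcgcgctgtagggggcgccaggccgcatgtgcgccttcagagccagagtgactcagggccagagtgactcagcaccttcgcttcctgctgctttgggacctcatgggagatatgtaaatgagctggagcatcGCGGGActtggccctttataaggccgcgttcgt
Dazl (chr17:50293621-50293870, minus strand): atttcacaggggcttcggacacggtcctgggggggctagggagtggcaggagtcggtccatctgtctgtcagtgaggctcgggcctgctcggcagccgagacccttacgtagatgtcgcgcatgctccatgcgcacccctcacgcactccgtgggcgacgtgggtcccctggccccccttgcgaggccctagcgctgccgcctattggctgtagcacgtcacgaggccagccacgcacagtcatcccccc
Fkbp6 (chr5:135350045-135350294, minus strand): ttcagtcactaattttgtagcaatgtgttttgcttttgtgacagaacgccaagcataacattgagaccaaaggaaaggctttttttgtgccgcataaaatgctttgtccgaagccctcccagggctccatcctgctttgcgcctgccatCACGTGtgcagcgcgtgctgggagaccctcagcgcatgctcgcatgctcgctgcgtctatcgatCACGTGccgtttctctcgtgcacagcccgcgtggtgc
Tdrd9 (chr12:111971309-111971558, plus strand): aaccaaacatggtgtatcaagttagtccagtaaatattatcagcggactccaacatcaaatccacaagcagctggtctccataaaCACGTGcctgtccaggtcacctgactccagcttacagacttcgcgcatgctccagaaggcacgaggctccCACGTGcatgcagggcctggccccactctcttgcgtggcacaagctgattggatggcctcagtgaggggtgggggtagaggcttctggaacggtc

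The RefSeq start is not always the first one annotated. For 5 of the 31 genes (Meioc, Stra8, Stag3, Tdrd5 and Tex101) the bases before it lie wholly inside the GENCODE M21 gene. The printed Meioc sequence is one of these, since its RefSeq start lies 1869 bases inside the gene. The starts of the other printed genes lie at most 16 bases inside.

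Before the RefSeq start, Hormad1 held 2 E-boxes and 1 E2F hexamer, Mael held 1 of each, and Dmc1 held 2 E2F hexamers. Fkbp6 and Tdrd9 held 2 E-boxes each and no E2F hexamer. All printed genes that rose held the E2F hexamer and those that fell held none, which is not so beyond them. Rec8, not printed, fell by 1.15 on the log2 scale and held it. Tdrd1 and Tdrkh, also not printed, rose by 0.98 and 0.78 and did not. Over the whole 300-base windows, searched on both strands and without overlap between the motifs, the E-box was in 14 of 31 genes (45.2%) and the E2F hexamer in 15 (48.4%). Of the windows of all 27025 genes in the RefSeq table, taking the window listed first for each gene as here, 7.24% held the E-box and 5410 genes held the E2F hexamer. Among the 10729 genes that were tested for a change and had a window, the shares were 10.3% and 36.5%, and among the 8852 of them with at least 10 CpG they were 11.4% and 42.1%. The windows of these germline genes had from 10 to 48 CpG dinucleotides with a median of 20, against a median of 21 in tested genes and 7 in all genes. A match describes the letters and is not a binding site. Methylation was not measured.

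Most of these genes were transcribed at both times. With detection set at a mean of 0.5 CPM (the count scaled to library size and composition) over the 6 libraries, 33 of 36 were detected, and the same number when each time was taken alone. At 48 h Tdrd9 only just reached 0.5 CPM, with a mean of 0.501. At 1 CPM the number was 31. Of the 21793 protein-coding genes in the table, 59.7% were detected at 0.5 CPM. The 3 genes below that level were Piwil4, Spo11 and Tex101. Spo11, which makes the DNA breaks of meiotic recombination, had 0 counts in each 24 h library, and 4, 2 and 1 counts in the 48 h libraries. A count of 0 allows up to 3 counts, between 0.127 and 0.15 CPM in the 24 h libraries, by counting error alone. Piwil4, a PIWI protein of fetal male germ cells, had 1, 4 and 0 counts at 24 h and 4, 11 and 4 at 48 h. Tex101, a sperm and testis surface protein, had at most 6 counts in any library.

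Levels between genes were compared as CPM per kilobase of merged exon. Tex19.1, which is active in germ cells and placenta, led the order at both times, with 39.4 ± 0.24 at 24 h and 48.6 ± 0.69 at 48 h (SD, n = 3). Syce2, a central element protein of the synaptonemal complex, followed with 22.8 ± 0.82 and 32.1 ± 2.09. At 24 h Syce1 (10.04 ± 0.30) and Hormad1 (9.95 ± 0.19) did not differ beyond their spread, whereas at 48 h Hormad1 stood at 17.2 ± 0.51 and Syce1 at 9.51 ± 0.15. The detected genes reached down to 0.0926 ± 0.025 for Tdrd9 at 48 h.

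**Figure D1:**
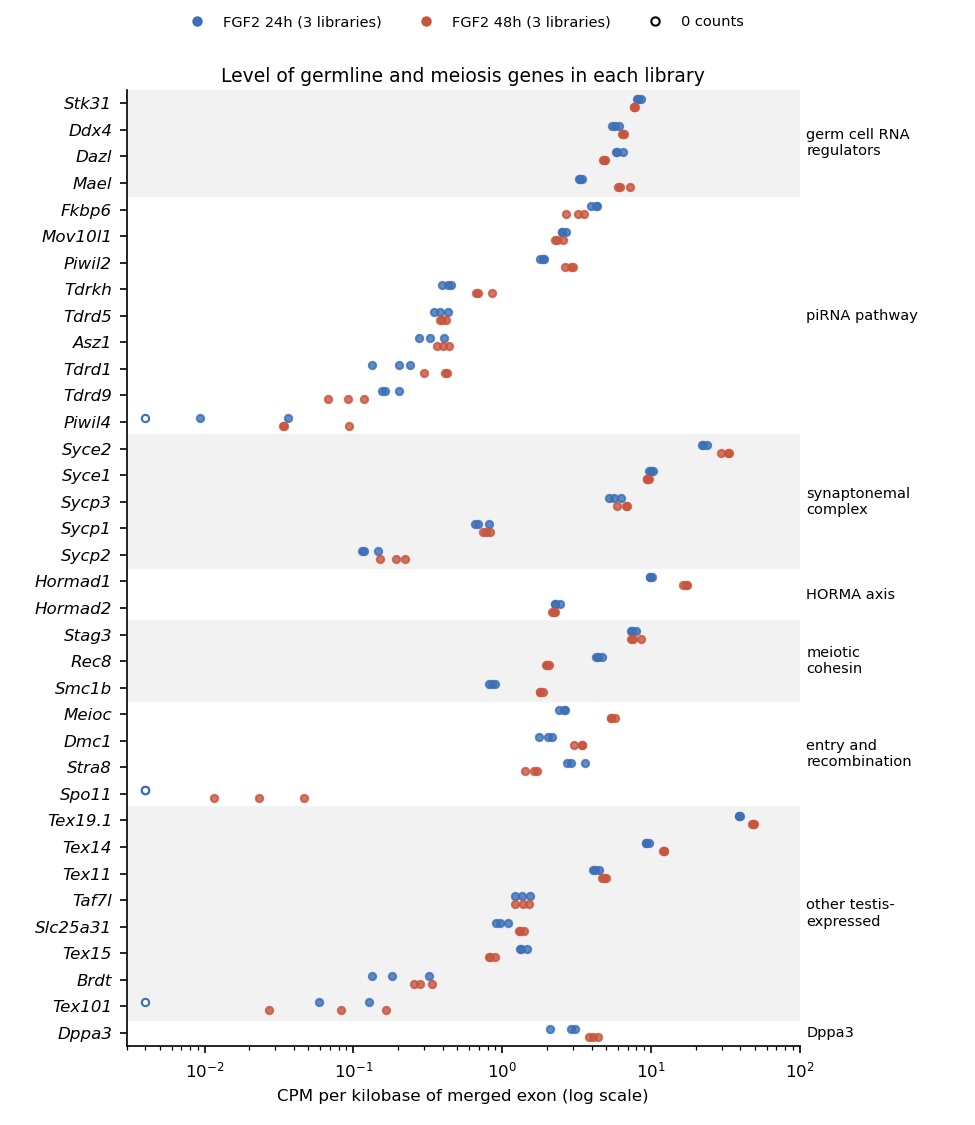
Level of each of the 36 genes in each library, as CPM per kilobase of merged exon on a log axis, grouped by role. Each point is a library, and open points stand for 0 counts. Tex19.1 and Syce2 lie above 20 in all 6 libraries, and Piwil4, Spo11 and Tex101 lie at the bottom of the range.

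The genes moved in both directions between 24 h and 48 h. Of the 33 that passed the filter on low counts and were tested, 15 rose, 6 fell and 12 did not pass the test. Changes were tested with edgeR's quasi-likelihood method over all 14889 genes with enough counts, and a gene passes where its Benjamini-Hochberg adjusted p over all of them is under 0.05. Over all tested genes 62.8% passed, 30.9% upward and 31.9% downward, and the 63.6% of the germline genes that passed lies near the share of all genes. By direction, 45.5% of the germline genes rose and 18.2% fell. In bulk RNA, a change in the number of cells that express a gene and a change per cell cannot be told apart. The median log2 fold change was 0.20 in the 33 genes and -0.01 in all tested genes, and the median size was 0.43 against 0.26. Changes of at least 2-fold were called for 3 genes (Meioc, Smc1b and Rec8), or 9.09%, against 11.2% of all tested genes. The values of the 3 libraries at one time did not overlap those at the other for 24 of the 33 genes, against 66.9% of all tested genes.

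Summed over the 36 genes, the level was 451.8, 442.2 and 439.1 CPM at 24 h and 522.4, 538.4 and 515.2 CPM at 48 h. All 48 h libraries lay above the 24 h libraries. The ratio of the means was 1.18 (p = 0.1 by exact permutation, two-sided, which 3 against 3 libraries cannot go below). The unscaled share of the counts was 0.0453% ± 0.0007 at 24 h and 0.0514% ± 0.0012 at 48 h (SD, n = 3). Abundant genes weigh most in such a sum, and it does not stand for each of the 36 genes, of which 6 fell. The largest gains in mean CPM were those of Syce2 (44.9 to 63.1), Tex19.1 (73.7 to 91.0) and Tex14 (47.3 to 61.3). Meioc (11.8 to 25.5) and Hormad1 (17.2 to 29.7) came next.

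**Figure D2:**
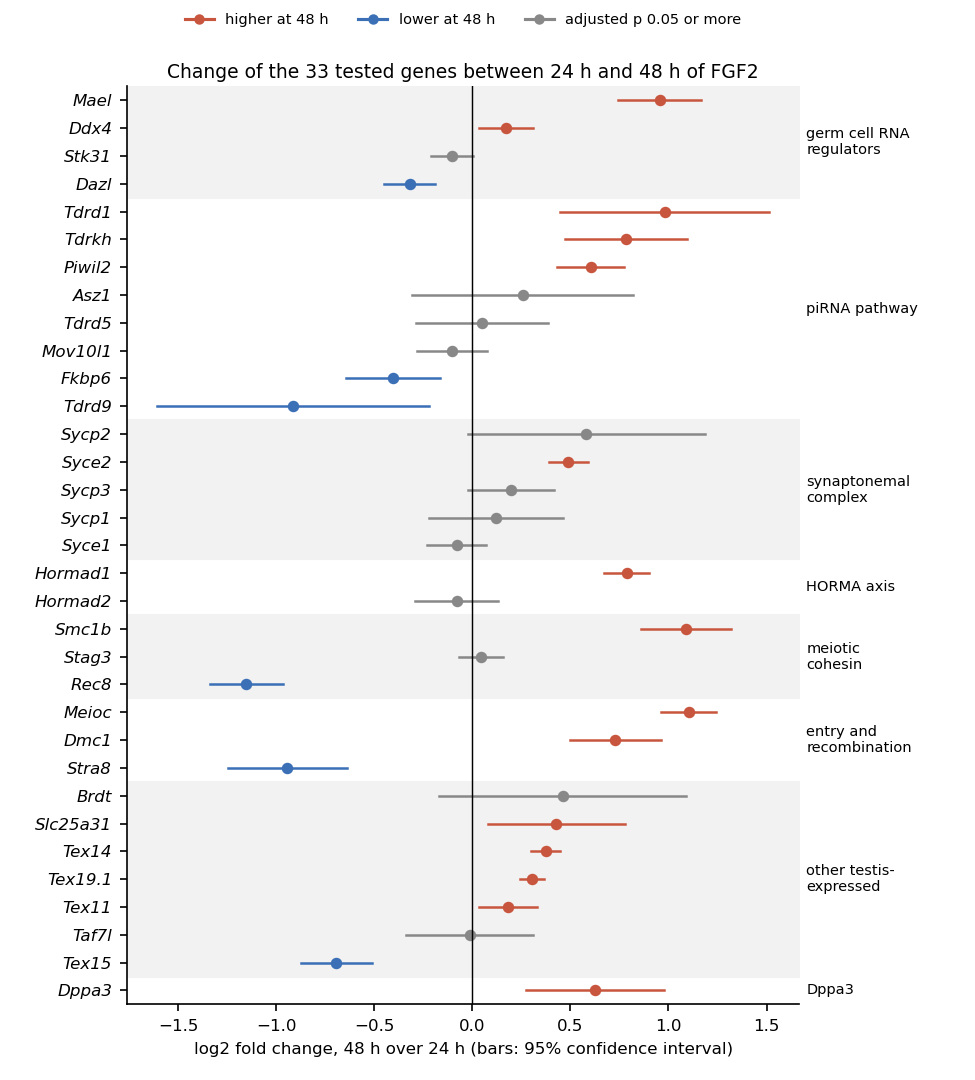
log2 fold change (48 h over 24 h) of the 33 tested genes with its 95% confidence interval, grouped by role. Colours mark genes called higher, called lower or not called at an adjusted p of 0.05. The largest changes are those of Rec8 (-1.15), Meioc (1.1) and Smc1b (1.09).

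Among the germ cell RNA regulators, Mael and Ddx4 rose, Dazl fell, and Stk31 did not pass the test. Mael (ENSMUSG00000040629, chr1:166201201-166238747) had 6.01, 5.66 and 5.81 CPM in the 24 h libraries and 10.8, 12.7 and 10.4 CPM in the 48 h libraries. The values at 48 h lay clear of those at 24 h. Mael, which aids nuclear transposon silencing and piRNA biogenesis, had a log2 fold change of 0.96 (SE 0.10, adjusted p = 3.49e-07). Dazl (ENSMUSG00000010592, chr17:50279395-50293636) had 24.7, 22.4 and 22.5 CPM in the 24 h libraries and 18.5, 18.4 and 18.9 CPM in the 48 h libraries. Every 48 h library was below every 24 h library. The change of Dazl, an RNA-binding protein needed for germ cell licensing, was -0.32 (SE 0.06, adjusted p = 0.000254). Ddx4 (ENSMUSG00000021758, chr13:112598333-112652475) had 16.4, 18.4 and 17.3 CPM in the 24 h libraries and 19.6, 19.8 and 19.3 CPM in the 48 h libraries. Ddx4 is the Vasa RNA helicase, and its groups were close but did not overlap. Its log2 fold change was 0.17 (SE 0.06, adjusted p = 0.0313). The call was lost without replicate 1 or 3 of 24 h or replicate 1 or 2 of 48 h (adjusted p from 0.0609 to 0.118). With all 6 libraries it was also lost under another test method, DESeq2 (adjusted p = 0.0992). Stk31, a Tudor-domain kinase-like protein and the most abundant of the 4 per length, went from 26.9 ± 0.942 to 25.1 ± 0.311 CPM (SD, n = 3), a log2 change of -0.10 with a 95% interval from -0.21 to 0.01. Its 48 h libraries all lay below the 24 h libraries, and with library size as the only scaling it passed the test (-0.16, adjusted p = 0.0107).

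Of the 9 piRNA pathway genes 8 were tested, of which 3 rose, 2 fell and 3 did not pass. Piwil2 (ENSMUSG00000033644, chr14:70372477-70429383) had 9.51, 10.01 and 10.1 CPM in the 24 h libraries and 13.9, 15.3 and 15.8 CPM in the 48 h libraries. Piwil2 (MILI), the PIWI protein that drives the amplification of piRNAs, was higher in all 48 h libraries, with a log2 fold change of 0.60 (SE 0.08, adjusted p = 5.74e-06). Tdrkh (ENSMUSG00000041912, chr3:94413273-94434668) had 2.65, 2.44 and 2.8 CPM in the 24 h libraries and 4.23, 4.11 and 5.28 CPM in the 48 h libraries. Tdrkh, a mitochondrial Tudor protein that helps trim piRNA precursors, had a log2 fold change of 0.78 (SE 0.15, adjusted p = 0.000197). Tdrd1 (ENSMUSG00000025081, chr19:56826209-56870012) had 1.3, 0.732 and 1.1 CPM in the 24 h libraries and 2.26, 2.33 and 1.62 CPM in the 48 h libraries. Tdrd1, a Tudor scaffold that binds PIWI proteins, rested on 15 to 51 counts in a library and had a log2 fold change of 0.98 (SE 0.25, adjusted p = 0.0028). Exons of Tdrkh overlap those of Oaz3 on the opposite strand over 2255 bases in GENCODE M21, and Oaz3 had 0 to 2 counts in any library.

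Fkbp6 (ENSMUSG00000040013, chr5:135291704-135350044) had 6.96, 7.47 and 7.59 CPM in the 24 h libraries and 6.26, 5.71 and 4.69 CPM in the 48 h libraries. Fkbp6, a co-chaperone in piRNA loading, was lower in every 48 h library, with a log2 fold change of -0.40 (SE 0.11, adjusted p = 0.00561). Tdrd9 (ENSMUSG00000054003, chr12:111971559-112068854) had 0.851, 0.879 and 1.1 CPM in the 24 h libraries and 0.368, 0.64 and 0.496 CPM in the 48 h libraries. Tdrd9, a helicase with a Tudor domain, had 8 to 26 counts in a library. Its log2 fold change of -0.91 (SE 0.33, adjusted p = 0.0228) lost its call without replicate 3 of 24 h (0.0995) or replicate 1 (0.0977) or 3 (0.0605) of 48 h. With all 6 libraries the call was also lost under another test method, DESeq2 (adjusted p = 0.0991). Mov10l1, the helicase that feeds precursors into the pathway, went from 10.8 ± 0.393 to 10.02 ± 0.595 CPM (SD, n = 3), with an interval of the log2 change from -0.28 to 0.07. The intervals of Tdrd5 (-0.29 to 0.38) and Asz1 (-0.31 to 0.82), which act in germ granules and at mitochondria, were wider.

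Of the 5 synaptonemal complex genes only Syce2 passed the test. Syce2 (ENSMUSG00000003824, chr8:84872111-84888221) had 43.6, 46.7 and 44.5 CPM in the 24 h libraries and 64.8, 66.1 and 58.5 CPM in the 48 h libraries. All 48 h libraries were above the 24 h libraries, and the log2 fold change was 0.49 (SE 0.05, adjusted p = 1.25e-07). Syce1, another central element protein, changed by -0.08 (95% interval -0.23 to 0.07). The transverse filament gene Sycp1 changed by 0.12 (-0.22 to 0.46), and the lateral element genes Sycp3 and Sycp2 by 0.20 (-0.02 to 0.41) and 0.58 (-0.02 to 1.19). With replicate 1 of 24 h left out Sycp3 passed at 0.27 (adjusted p = 0.0496), and with replicate 2 of 48 h left out at 0.27 (0.0497). Its exons overlap those of Chpt1 on the opposite strand over 660 bases, and Chpt1 had 280 to 373 counts in the 24 h libraries and 179 to 207 in the 48 h libraries. What those reads add to Sycp3 was not tested.

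Of the chromosome axis genes Hormad1 rose and Hormad2 did not pass the test. Hormad1 (ENSMUSG00000028109, chr3:95559677-95587671) had 17, 17.6 and 17 CPM in the 24 h libraries and 29.9, 28.7 and 30.4 CPM in the 48 h libraries. Hormad1 encodes an axis protein that promotes break formation and homologue pairing, and its groups were far apart. Its log2 fold change was 0.79 (SE 0.05, adjusted p = 2.06e-09). Its counts were fractional, which means that some reads were divided between similar sequences. Hormad2, its paralogue, went from 6.4 ± 0.295 to 6.07 ± 0.153 CPM (SD, n = 3), a log2 change of -0.08 with an interval from -0.29 to 0.13.

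Of the 3 meiotic cohesin genes Smc1b rose, Rec8 fell and Stag3 did not pass the test. Smc1b (ENSMUSG00000022432, chr15:85064689-85131964) had 3.3, 3.47 and 3.64 CPM in the 24 h libraries and 7.32, 7.31 and 7.58 CPM in the 48 h libraries. Smc1b, the meiotic form of SMC1, had a log2 fold change of 1.09 (SE 0.11, adjusted p = 1.98e-07). Rec8 (ENSMUSG00000002324, chr14:55618037-55625395) had 13.8, 13 and 12.6 CPM in the 24 h libraries and 5.85, 5.76 and 6.09 CPM in the 48 h libraries. Every 48 h value of Rec8, the meiotic kleisin that takes the place of RAD21, was below every 24 h value. Its log2 fold change was -1.15 (SE 0.09, adjusted p = 6.18e-09), the largest decrease among the 36 genes. Stag3, the meiotic STAG subunit, had 45.8, 42.7 and 42.1 CPM at 24 h and 43.2, 49.0 and 42.3 CPM at 48 h, which overlap (log2 change 0.04, interval -0.07 to 0.16).

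In each 24 h library there were 0.240, 0.267 and 0.289 Smc1b counts per Rec8 count, and in the 48 h libraries 1.25, 1.27 and 1.24. The mean ratio was 4.73 times higher at 48 h (p = 0.1 by exact permutation, two-sided, again the lowest possible). This ratio, and that of Meioc to Stra8, were chosen after the values were seen. Each sets a gene that rose without overlap over one that fell without overlap. Full separation and the permutation p of 0.1 were therefore fixed by the choice, and add nothing to the results of the single genes. Per length, the mitotic cohesin genes stood above the meiotic ones, with Rad21 at 126.3 ± 1.42 and 103.2 ± 1.72 and Smc1a at 39.1 ± 0.15 and 41.6 ± 0.86 at 24 h and 48 h (SD, n = 3). Rec8 stood at 4.47 ± 0.20 and 2.01 ± 0.06 and Smc1b at 0.858 ± 0.042 and 1.83 ± 0.04. All 5 mitotic cohesin genes passed the test, 3 upward and 2 downward, against 62.8% of all tested genes. Their log2 fold changes were 0.84 for Stag2, -0.29 for Rad21, 0.15 for Smc3, -0.15 for Stag1 and 0.09 for Smc1a.

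**Figure D3:**
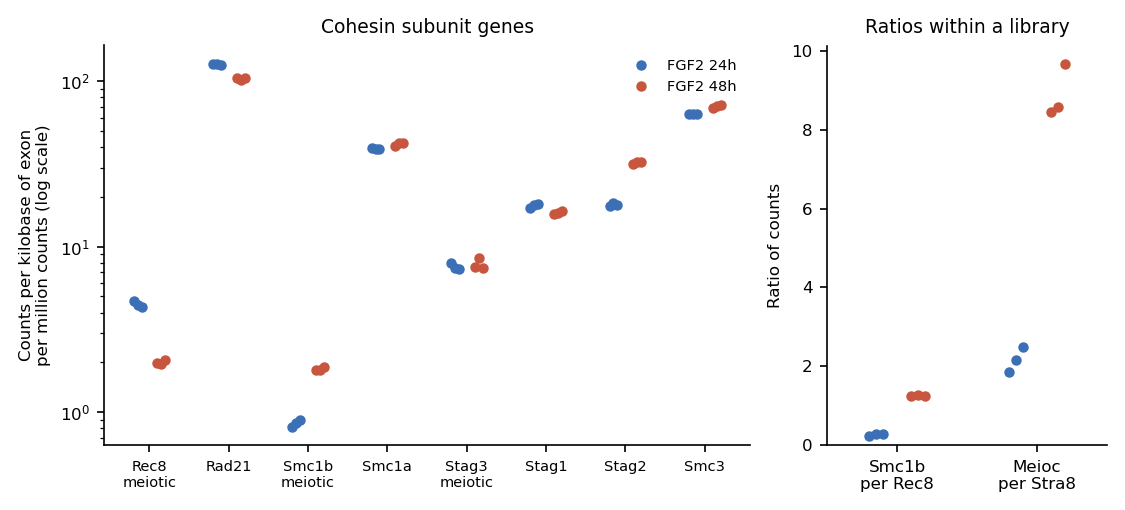
Left, level of meiotic (Rec8, Smc1b, Stag3) and mitotic cohesin genes in each library, as CPM per kilobase of merged exon on a log axis. Right, the ratio of Smc1b to Rec8 counts and of Meioc to Stra8 counts within each library. Both ratios are higher in all 3 libraries at 48 h than in any at 24 h, which follows from the choice of genes.

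Of the meiotic entry and recombination genes tested, Meioc and Dmc1 rose and Stra8 fell. Meioc (ENSMUSG00000051455, chr11:102663716-102682237) had 12.1, 11.2 and 12.2 CPM in the 24 h libraries and 24.9, 26.6 and 24.9 CPM in the 48 h libraries. Meioc, a partner of the RNA helicase YTHDC2 that holds germ cells in the meiotic programme, had a log2 fold change of 1.1 (SE 0.07, adjusted p = 3.54e-10), a 2.15-fold increase. Stra8 (ENSMUSG00000029848, chr6:34920163-34939344) had 6.51, 5.22 and 4.92 CPM in the 24 h libraries and 2.95, 3.11 and 2.57 CPM in the 48 h libraries. Stra8, the retinoic acid-responsive gatekeeper of meiotic initiation, was lower in all 48 h libraries, with a log2 fold change of -0.94 (SE 0.14, adjusted p = 2.47e-05). The Meioc counts per Stra8 count were 1.85, 2.15 and 2.49 in the 24 h libraries and 8.45, 8.57 and 9.67 in the 48 h libraries. Their mean was 4.11 times higher at 48 h (p = 0.1 by exact permutation, two-sided, the lowest possible and again fixed by the choice of genes). Dmc1 (ENSMUSG00000022429, chr15:79561497-79605109) had 5.31, 4.98 and 4.32 CPM in the 24 h libraries and 7.41, 8.36 and 8.34 CPM in the 48 h libraries. Dmc1, the meiosis-specific recombinase, was higher in each 48 h library, with a log2 fold change of 0.73 (SE 0.11, adjusted p = 2.18e-05).

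Among the other testis-expressed genes, Tex14, Tex19.1, Tex11 and Slc25a31 rose, Tex15 fell, and Taf7l and Brdt did not pass the test. Tex14 (ENSMUSG00000010342, chr11:87405065-87555823) had 48.6, 46.7 and 46.7 CPM in the 24 h libraries and 61, 61.8 and 61.2 CPM in the 48 h libraries. Tex19.1 (ENSMUSG00000039329, chr11:121146143-121148319) had 73.4, 73.5 and 74.2 CPM in the 24 h libraries and 89.8, 92.4 and 90.8 CPM in the 48 h libraries. Tex14, which keeps germ cell intercellular bridges open, and Tex19.1 changed little in size, but their replicates lay close together and the groups did not overlap. The log2 fold change of Tex14 was 0.37 (SE 0.04, adjusted p = 1.13e-07). That of Tex19.1 was 0.30 (SE 0.03, adjusted p = 1.39e-07), and its counts were fractional. Tex15 (ENSMUSG00000009628, chr8:33516738-33585582) had 14.2, 13 and 12.7 CPM in the 24 h libraries and 7.92, 8.68 and 8.03 CPM in the 48 h libraries. Tex15, a nuclear effector of piRNA-directed silencing in the male germline, was lower at 48 h in all libraries, with a log2 fold change of -0.69 (SE 0.08, adjusted p = 2.27e-06).

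Tex11 (ENSMUSG00000009670, chrX:100838648-101059667) had 16.3, 15.2 and 14.9 CPM in the 24 h libraries and 17.5, 18.1 and 17 CPM in the 48 h libraries. Slc25a31 (ENSMUSG00000069041, chr3:40708855-40726096) had 2.05, 2.34 and 1.95 CPM in the 24 h libraries and 2.81, 2.97 and 2.75 CPM in the 48 h libraries. Tex11 is an X-linked meiotic protein and Slc25a31 a germ cell ADP/ATP carrier. The log2 fold change of Tex11 was 0.18 (SE 0.07, adjusted p = 0.0302), and that of Slc25a31 was 0.43 (SE 0.16, adjusted p = 0.0315). Without replicate 2 or 3 of 24 h or replicate 1 or 2 of 48 h, Tex11 lost its call (adjusted p from 0.058 to 0.111). Slc25a31 lost its call without any single library other than replicate 2 of 24 h (0.0501 to 0.108). With all 6 libraries, DESeq2 called neither Tex11 (adjusted p = 0.0976) nor Slc25a31 (0.136). Taf7l, an X-linked TAF7 paralogue, went from 3.1 ± 0.362 to 3.09 ± 0.311 CPM (SD, n = 3) (interval of the log2 change -0.34 to 0.31). Brdt, the testis bromodomain protein, had 1.65, 0.684 and 0.932 CPM at 24 h and 1.43, 1.74 and 1.31 CPM at 48 h, a log2 change of 0.46 (-0.17 to 1.09). Without replicate 1 of 24 h, the highest of its group, the change was 0.87 (adjusted p = 0.024), and without replicate 2 of 24 h, the lowest, it was 0.23 (adjusted p = 0.533).

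Dppa3 (ENSMUSG00000046323, chr6:122626410-122630272) had 2.75, 2.59 and 1.86 CPM in the 24 h libraries and 3.96, 3.43 and 3.65 CPM in the 48 h libraries. Dppa3 (Stella), a maternal and primordial germ cell factor that naive stem cells also express and that hinders UHRF1-dependent methylation, was higher in each 48 h library. Its log2 fold change was 0.63 (SE 0.17, adjusted p = 0.00366), with fractional counts. Without Dppa3, 14 of 32 genes rose and 6 fell.

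**Figure D4:**
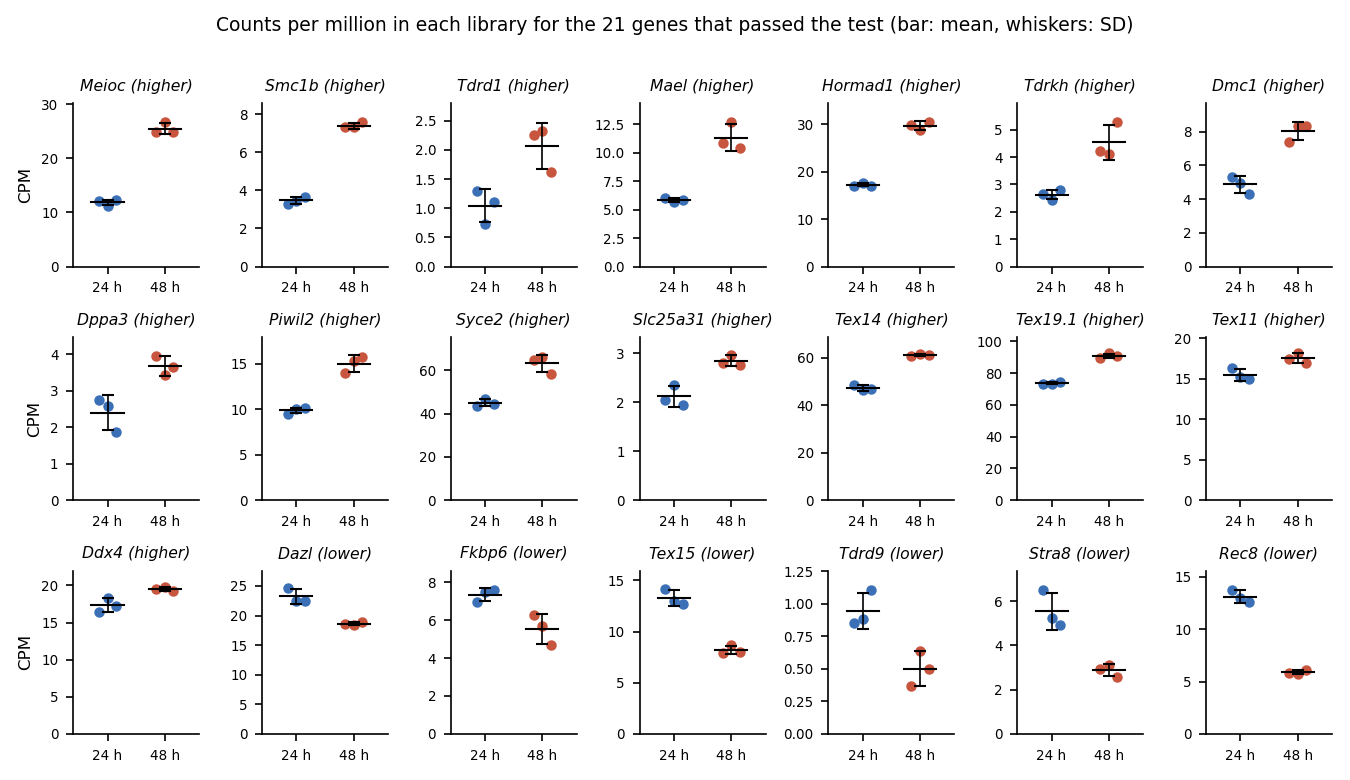
CPM in each library of the 21 genes that passed the test, with the y axis from 0. Points are libraries, bars means and whiskers SD (n = 3). In all 21 panels the points at 24 h and 48 h do not overlap. The genes were called on these same libraries, so this adds nothing to the calls. Of all tested genes 66.9% do not overlap.

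The promoter features were then set beside the changes as a description. The E2F hexamer was in the windows of 10 of 12 genes that rose, 1 of 5 that fell and 4 of 12 tested genes that did not pass. Of all tested genes with a window it was in 38.2% of those that rose, 36.6% of those that fell and 34.7% of those that did not pass. The E-box was in 5 of the 12 that rose, 2 of the 5 that fell and 7 of the 12 that did not pass, against 11.5%, 9.87% and 9.62% in all tested genes. The median CpG count was 23 in the genes that rose, 18 in those that fell and 18.5 in those that did not pass, against 23, 20 and 20 in all tested genes with a window. Of the genes that fell, Tdrd9 and Stra8 had 10 CpG each, Rec8 18, Fkbp6 21 and Dazl 28. Sycp2, with a log2 change of 0.58 that did not pass, also had 10. Across the 29 genes with both values, Spearman's rho between CpG count and log2 fold change was 0.27, against 0.08 across the 10729 tested genes with a window. Without the 5 windows that lie inside the gene, a choice made after seeing the data, the E2F hexamer was in 9 of 11 genes that rose, 1 of 4 that fell and 2 of 10 that did not pass. The median CpG counts were then 22, 19.5 and 17, and rho was 0.25 over 25 genes. Among the windows kept, the start of Ddx4 lay 165 bases and that of Rec8 129 bases inside the gene. Before the starts of Smc1b and Tex14, 137 and 140 bases were exonic, mostly outside those genes. Each of these windows held the E2F hexamer. Genes are not independent replicates, they share the same 6 libraries, and no part of these features in the changes was tested.

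**Figure D5:**
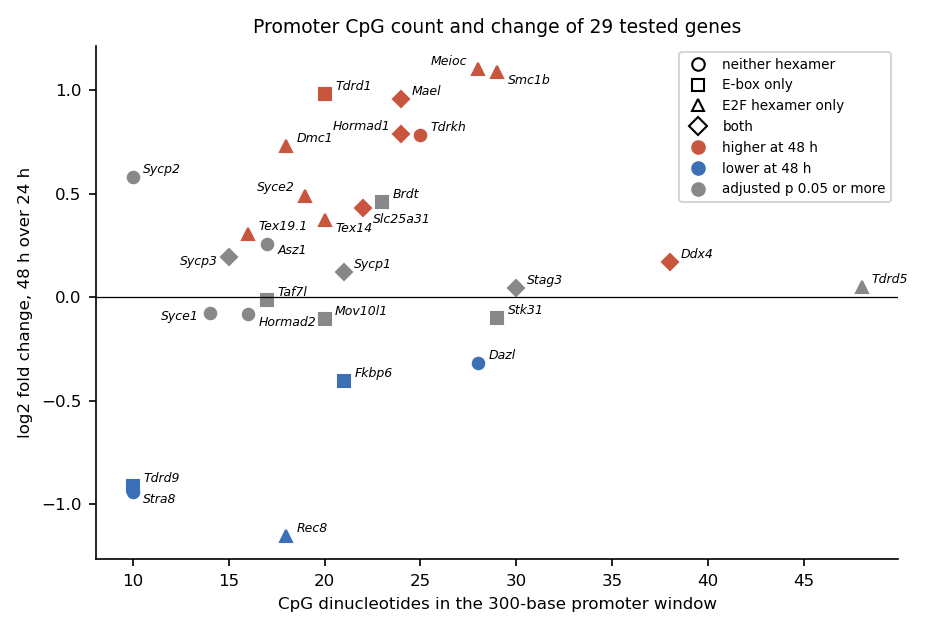
CpG dinucleotides in the 300-base RefSeq window (x axis) against log2 fold change, 48 h over 24 h (y axis), for 29 tested genes. Colours give the call and shapes the hexamers found. Genes that rose lie between 16 and 38 CpG, and those that fell between 10 and 28.

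Further lists were read against the 30.9% of all tested genes that rose and the 31.9% that fell, with a median log2 change of -0.01. Of 13 other piRNA genes 12 were tested, of which 5 rose and 3 fell (median 0.13). Tdrd12 went from 26.6 ± 1.04 to 42.5 ± 1.2 CPM (SD, n = 3), a log2 change of 0.68. Gtsf1 went from 2.27 ± 0.16 to 4.15 ± 0.358 CPM (SD, n = 3), a log2 change of 0.86. Exd1 fell by 0.75 on the log2 scale. Henmt1, the piRNA methyltransferase, changed by 0.84 and did not pass (adjusted p = 0.0502). Of 32 other meiosis genes, 29 names matched the table and 20 were tested, of which 11 rose and 4 fell (median 0.21). The largest changes were those of the recombination genes Meiob (1.87) and Msh4 (1.14), and of the telomere attachment genes Terb2 (1.02) and Majin (0.89). These 4 genes were low, and Meiob went from 0.311 ± 0.0584 to 1.15 ± 0.21 CPM (SD, n = 3).

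Of 23 genes listed as repressors of germline genes, all tested, 17 were higher, 4 lower and 2 did not pass (median 0.14). Not all of the 23 are specific to that role. Dnmt3b and Dnmt3a, which write new DNA methylation, had log2 fold changes of 3.35 (with fractional counts) and 2.02, their cofactor Dnmt3l 1.11 and the helicase Hells, which aids methylation, 0.83. The 4 lower genes were Wdr5 (-0.69), Zfp57 (-0.63), Setdb1 (-0.30) and Rnf2 (-0.29), named after their values were seen. Among the TET demethylases, which oxidise methylated cytosine, Tet2 fell by 0.97, while Tet1 and Tet3 rose, Tet1 by 0.43. Of 14 genes listed as regulators of primordial germ cells and early germ cells, 10 were tested. Of these 8 fell and 2 rose (median -1.69). Not all of the 14 are specific to that role, and Elf3 is among the 8 that fell. Whether the falls concern a germ cell role was not tested. The 2 that rose were Lin28a (1.55) and Sohlh2 (0.29), named after their values were seen. Id4, Zbtb16, Prdm14 and Tfap2c had log2 fold changes of -2.75, -2.64, -2.53 and -2.09. The summed level of the 14 was 451.8 to 454.2 CPM at 24 h and 683.4 to 690.4 CPM at 48 h, and Lin28a alone made 42.4% and 82.1% of it.

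Marker lists of other cell states were read beside these results. The embryonic stem cell markers summed to between 3967 and 4068 CPM at 24 h and between 2487 and 2581 at 48 h, and all 6 were detected. Of these 5 were lower, with log2 fold changes from -1.99 (Nanog) to -0.07 (Pou5f1), and 1 was higher (Utf1, 0.60). The 6 primordial germ cell markers Prdm1, Prdm14, Tfap2c, Nanos3, Dnd1 and Kit summed to 183.6 to 196.9 CPM at 24 h and 66.8 to 72.1 at 48 h. Not all of the 6 are specific to germ cells. Kit, which is not, made 71.2% and 74.4% of these sums, and Nanos3 had 3 to 7 counts in a library. The trophoblast markers summed to 47.3 to 49.5 and 20.1 to 23.6 CPM, with Cdx2 at 0 or 1 count. Tfap2a (23.1 and 13.3 CPM) and Krt8 (20.6 and 5.26 CPM) made most of these sums. The primitive endoderm markers summed to 9.31 to 11.1 and 5.58 to 6.32. Of each of these 2 lists only 3 markers were tested. All 3 trophoblast markers were lower, against 31.9% of all tested genes. Of the primitive endoderm markers only Gata4 was lower (5.84 to 2.25 CPM), and Dab2 and Pdgfra did not pass. The 7 markers of the rare state that resembles the 2-cell embryo summed to 230.7 to 245.6 CPM at 24 h and 326.7 to 335.5 at 48 h, with 4 of 7 higher and 0 lower. The paralogues Zscan4c, Zscan4d and Zscan4f were 3 of the 4 and made 92.9% and 94.8% of the sum. All 7 markers had fractional counts, so reads shared between copies enter these values. The part of these cell states in the changes of the germline genes was not tested.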

How the data were processed

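Messenger RNA was measured in 6 libraries, 3 at 24 h and 3 at 48 h of FGF2, made with a KAPA mRNA HyperPrep kit per the labels' protocols. The authors deposited estimated counts per Ensembl gene, 1 column per sample, neither scaled for depth nor for length. RSEM 1.3.0, STAR 2.5.2, cutadapt 1.9.1 and the GRCm38 build are named in the submitters' processing notes, while the annotation release and the strand setting are not given in the sources used here. RSEM can divide a read between similar genes, so 3 of the 36 genes (Hormad1, Tex19.1, Dppa3) had counts that were not whole. Library totals ran from 19574969 to 23133148. Symbols came from GENCODE M21, which also gave exon lengths and overlaps.

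Counts were rounded, filtered with edgeR 4.0.16 (filterByExpr, minimum count 10) and scaled by TMM in R 4.3.3. Groups were compared across all genes by quasi-likelihood F tests without other covariates, adjusted by Benjamini-Hochberg. The standard error (SE) is the log2 fold change over the root of F. The method was tested on simulated data in which a far smaller share of genes changed than was called here. Pairs of replicates differed by more than counting noise (chi-square 1.8 to 2.26 per degree of freedom). The common coefficient of variation beyond counting noise was 2.32%. Each library was counted as a sample, but these values do not show that they were separate cultures.

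The genes, lists and tests were chosen with earlier results of these data known. Library values are given for genes of the set that were tested, had at least 0.5 CPM and passed. Of each further list up to 4 genes, those with the largest changes, are named, and any other gene named from a list was chosen after its values were seen. Alternatives were RLE or no scaling factor, other filters, unrounded counts, DESeq2 1.42.0, limma 3.58.1 (voom), the replicate number as a block, a threshold of 0.01 and leaving out each library.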

Additional observations from a re-analysis of the deposited data

How the results depend on the processing

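Of the 21 genes called, 17 (12 higher, 5 lower) kept direction and call in each of the 15 alternatives that tested them. Ddx4, Tdrd9, Slc25a31 and Tex11 lost the call in 5 to 9 of them and reversed in 0. DESeq2 called none of these genes. Ddx4, Slc25a31 and Tex11 also lost the call with library size as the only scaling and without a filter on low counts. The count of genes that rose was 12 to 15 and of those that fell 5 to 7 over the alternatives. DESeq2 called 12 higher and 5 lower and 7986 genes in all, against 9345. The median log2 fold change of the tested genes, 0.20, was 0.14 with library size as the only scaling, 0.28 without a filter on low counts and 0.23 with at least 10 counts in every library; leaving out 1 library gave 0.17 to 0.27. Fewer or more genes enter under the filters. Library size as the only scaling took the median of all tested genes from -0.01 to -0.07. Signs turned for 3 genes that were not called in any alternative. Library size alone gave -0.012 for Tdrd5 and -0.016 for Stag3. Leaving out 1 library gave -0.028 (without replicate 3 of 24 h) to 0.132 for Tdrd5, -0.021 (without replicate 2 of 48 h) to 0.087 for Stag3, and -0.091 to 0.080 (without replicate 3 of 24 h) for Taf7l, which was 0.062 without replicate 1 of 48 h. The cause was not tested. The number of detected genes was 31 to 33. With the replicate block 15 genes rose and 6 fell, as without it, and no call among the 36 changed. Deviations of same-numbered libraries correlated at -0.05, -0.04 and -0.01, and replicate numbers were not taken as pairs. Spo11, Piwil4 and Tex101 had too few counts to pass the main filter. Without a filter, Spo11 passed (adjusted p = 0.0463) on 7 counts in all.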
